A study of Rattus norvegicus with 46 samples.

Results

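The 6 genes described here are associated with reactive astrocytes: *Gfap* (ENSRNOG00000002919), *Vim* (ENSRNOG00000018087), *Nes* (ENSRNOG00000018681), *Lcn2* (ENSRNOG00000013973), *Cd44* (ENSRNOG00000006094) and *Stat3* (ENSRNOG00000019742). They were chosen by gene ID from the 30452 IDs of the count table, with earlier results of these data known, and all 6 had counts in all 46 libraries. RNA was sequenced from the brains of male Wistar rats that were 3 months old and weighed 320 to 350 g at the start. Ischaemic stroke was modelled by MCAO, the occlusion of the middle cerebral artery, which supplies a large part of a hemisphere. Lesion tissue was taken 14 days later and compared with intact brain. Each rat ate 1 of 2 diets, for 2 months up to the time of MCAO and for 2 weeks from then on. The ketogenic diet held 6431 kcal/kg, with 84% from fat, 11% from protein and 5% from carbohydrate. The standard diet, which the labels call ad libitum, held 3227 kcal/kg, with 11% from fat, 24% from protein and 65% from carbohydrate. The groups were lesions on the ketogenic diet (19 libraries), lesions on the standard diet (11), intact brain on the ketogenic diet (8) and intact brain on the standard diet (8). The labels give no brain region, no sham operation and no batch. Nothing says which libraries came from separate animals, so p-values rest on the spread between these libraries. Libraries are called below by group and by the sample number in the labels.

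Astrocytes respond to injury by enlarging, by making more intermediate filaments and by changing what they secrete, and those next to dead tissue form a border around it. GFAP is the main filament protein of mature astrocytes. Vimentin assembles with it, and nestin, best known from neural progenitors, joins these filaments in reactive cells. CD44 is a surface receptor for the matrix polymer hyaluronan. Lipocalin 2 is a secreted protein that binds iron-carrying siderophores and is made by reactive astrocytes in mouse models of stroke and inflammation. STAT3 is a transcription factor activated downstream of interleukin-6 family receptors, and in mice its loss from astrocytes weakens scar formation after spinal cord injury. Apart from GFAP, these proteins are also made by other cells of injured tissue: vimentin is found in vessels, fibroblasts and microglia, CD44 on leukocytes, lipocalin 2 in neutrophils, and STAT3 in most cells.

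*Gfap* and *Vim*, filament genes whose proteins assemble together but whose levels parted among the lesions, are shown by the 250 bases before their annotated starts (RefSeq, GRCr8). The *Gfap* window lies on the minus strand at chr10:88361662-88361911 and the *Vim* window on the plus strand at chr17:81577011-81577260, and neither overlaps another annotated gene. Capitals mark matches to 5 motifs searched on both strands: STAT sites with a spacer of 3 bases (TTCNNNGAA) or 4 bases (TTCNNNNGAA), the AP-1 site TGANTCA, the CCAAT box and the TATA box TATAAA.
Gfap promoter: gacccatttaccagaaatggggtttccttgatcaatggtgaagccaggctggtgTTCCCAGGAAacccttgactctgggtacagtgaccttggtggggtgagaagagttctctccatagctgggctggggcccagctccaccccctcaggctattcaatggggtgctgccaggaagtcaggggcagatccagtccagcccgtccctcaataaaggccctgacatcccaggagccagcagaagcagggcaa
Vim promoter: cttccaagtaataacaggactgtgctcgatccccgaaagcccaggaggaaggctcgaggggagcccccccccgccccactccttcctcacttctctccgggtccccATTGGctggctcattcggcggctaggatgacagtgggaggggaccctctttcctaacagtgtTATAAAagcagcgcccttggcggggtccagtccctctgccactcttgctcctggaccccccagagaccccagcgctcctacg
The *Gfap* window held 1 STAT site with the wider spacer, TTCCCAGGAA, which starts at -196 relative to the gene start. The *Vim* window held a CCAAT box read on the other strand, ATTGG, at -144, and TATAAA at -82. The windows of the other 4 members overlap the annotated span of their own gene, wholly or in part, and are not described. Of 33469 rat windows of the same length, not sorted by such overlap, 7.67% held TTCNNNGAA, 6.25% TTCNNNNGAA, 6.34% TGANTCA, 34% CCAAT and 12.9% TATAAA. A match is a run of letters and no measured binding site.

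Library totals lay between 15290782 and 30601841 counts for ketogenic lesions, and between 17068206 and 22664327 for standard lesions. For intact brain they lay between 12911844 and 20420918 counts in ketogenic rats, and between 8883068 and 18868791 in standard rats. Levels are library-scaled counts (CPM) after TMM scaling, which corrects library totals for a few abundant genes, and are compared only within a gene, since they are not divided by transcript length. Fold changes and adjusted p-values come from edgeR's quasi-likelihood test, with Benjamini-Hochberg adjustment over all genes tested, and a gene was called at an adjusted p under 0.05. In tissue of mixed cells, more cells of a type and more RNA per cell cannot be told apart. The files pair no gene ID with a name, so markers of other cell types were not read, and their part in the results below was not tested.

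The question of the first comparison was how lesion tissue differed from intact brain on each diet. All 6 genes were higher in lesions on both diets. On the ketogenic diet 6 of 6 were called higher, against 35.2% of the 15862 genes tested, and on the standard diet 6 of 6 were called higher, against 34.3% of 15446. The median log2 fold change of the 6 was 3.10 on the ketogenic diet and 2.59 on the standard diet, where the medians of all genes tested were -0.0029 and -0.0061. No lesion overlapped intact brain for 4 of the 6 genes on the ketogenic diet, where 8.04% of 14645 genes were higher without overlap. On the standard diet that held for 5 of 6, where 12.3% of 14619 genes were higher without overlap.

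*Gfap*, the astrocyte filament gene, rose most in log2 terms on the standard diet and came second after *Cd44* on the ketogenic diet. In lesions on the ketogenic diet it ran from 1268 to 9837 CPM (median 3513), against 204 to 572 CPM (median 346) in intact brain on that diet. In lesions on the standard diet it ran from 1745 to 8018 CPM (median 4589), against 162 to 376 CPM (median 282) in intact brain. The lowest lesion was thus above the highest intact library by a wide margin on both diets. The log2 fold change was 3.63 ± 0.37 (SE, 12.4-fold, 95% interval 7.36 to 20.9, adjusted p = 3.87e-09) on the ketogenic diet and 4.06 ± 0.31 (16.7-fold, 10.7 to 26.0, adjusted p = 4.68e-09) on the standard diet.

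*Vim*, which encodes the filament partner of GFAP, ran from 223 to 2402 CPM (median 1032) in lesions on the ketogenic diet, against 57.6 to 143 CPM (median 117) in intact brain. In standard-diet rats it ran from 241 to 1517 CPM (median 909) in lesions, against 70.0 to 219 CPM (median 127) in intact brain. The groups did not overlap on either diet, but on the standard diet the lowest lesion, 71, lay just above the highest intact library, 83. The gene rose 10.06-fold on the ketogenic diet (log2 3.33 ± 0.43, adjusted p = 2.25e-07) and 6.46-fold on the standard diet (log2 2.69 ± 0.34, adjusted p = 8.84e-07).

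*Nes*, the filament gene of progenitors, ran from 10.7 to 88.9 CPM (median 36.8) in lesions on the ketogenic diet, against 4.25 to 11.4 CPM (median 8.34) in intact brain. In standard-diet rats it ran from 12.8 to 52.2 CPM (median 32.8) in lesions, against 3.94 to 10.7 CPM (median 7.90) in intact brain. On the ketogenic diet 18 of 19 lesions were above every intact library, the exception being lesion 31, and on the standard diet 11 of 11 were. The rise was 4.68-fold on the ketogenic diet (log2 2.23 ± 0.35, adjusted p = 4.06e-06) and 4.38-fold on the standard diet (log2 2.13 ± 0.25, adjusted p = 3.09e-07).

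*Cd44*, the hyaluronan receptor gene, ran from 8.99 to 87.3 CPM (median 47.6) in lesions on the ketogenic diet, against 1.35 to 5.87 CPM (median 3.08) in intact brain. In standard-diet rats it ran from 17.4 to 89.3 CPM (median 52.5) in lesions, against 1.27 to 5.52 CPM (median 2.97) in intact brain. The groups did not overlap on either diet. Its rise, 14.7-fold on the ketogenic diet (log2 3.88 ± 0.40, adjusted p = 5.99e-09) and 16.4-fold on the standard diet (log2 4.04 ± 0.33, adjusted p = 7.12e-09), had an interval that overlapped that of *Gfap* almost wholly.

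*Lcn2*, the lipocalin gene, was the lowest of the 6 in counts, with 31 to 561 reads in a lesion library and 4 to 29 in an intact one. It ran from 1.24 to 26.9 CPM (median 7.14) in lesions on the ketogenic diet, against 0.596 to 1.76 CPM (median 1.06) in intact brain. On the standard diet it ran from 1.64 to 20.1 CPM (median 5.62) in lesions, against 0.481 to 2.03 CPM (median 1.14) in intact brain. Ketogenic lesion 27 and standard lesion 71 lay inside the intact range, and the other 18 of 19 and 10 of 11 lay above it. The rise was 7.32-fold on the ketogenic diet (log2 2.87 ± 0.48, adjusted p = 8.70e-06) and 5.61-fold on the standard diet (log2 2.49 ± 0.39, adjusted p = 1.16e-05).

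*Stat3*, the transcription factor gene, moved least in fold and varied least among lesions. It ran from 88.8 to 193 CPM (median 151) in lesions on the ketogenic diet, against 37.1 to 54.9 CPM (median 52.2) in intact brain. On the standard diet it ran from 79.1 to 171 CPM (median 134) in lesions, against 44.6 to 60.9 CPM (median 53.5) in intact brain. No lesion overlapped intact brain. The rise was 2.75-fold on the ketogenic diet (95% interval 2.23 to 3.40, adjusted p = 3.78e-09) and 2.48-fold on the standard diet (2.09 to 2.95, adjusted p = 1.81e-08).

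**Figure D1:**
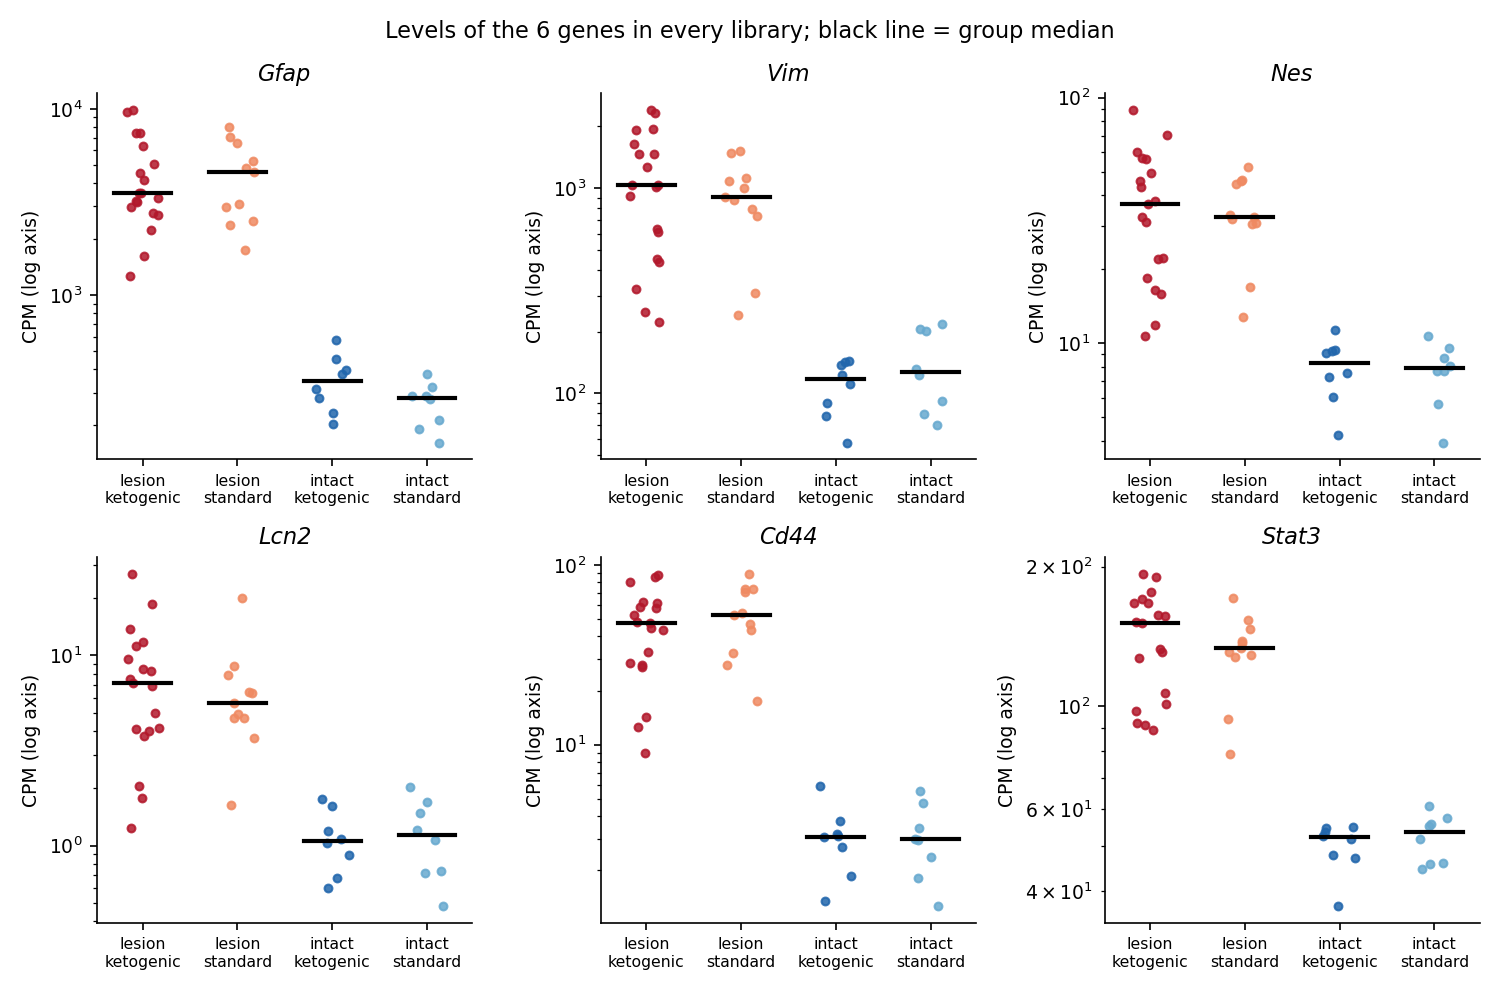
Level of each gene in every library, in CPM on a log10 axis, with 1 point per library and a bar at each group's median. All lesions lie above all intact libraries for *Gfap*, *Vim*, *Cd44* and *Stat3*, whereas 1 lesion reaches the intact range of its own diet for *Nes* and 2 do for *Lcn2*.

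TMM factors averaged 1.07 in lesions and 0.881 in intact brain, so the scaling bears on the size of every fold. With library totals alone, the median of all genes moved by 0.26 (log2) on the ketogenic diet and 0.35 on the standard diet, and the 6 genes moved with it. *Stat3* then had a log2 fold change of 1.73 on the ketogenic diet and 1.66 on the standard diet, and *Gfap* 3.89 and 4.40. All 6 were called higher under each alternative tried and with each library left out in turn.

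The second comparison asked whether the diet shifted these genes. None of the 6 was called between diets. In lesions 0 of 6 passed, against 0.741% of 15782 genes, and in intact brain 0 of 6 passed, against 0% of 14746 genes. At an unadjusted p under 0.05 edgeR with TMM scaling found 0 of the 6 in either tissue. In intact brain *Gfap* was under it by edgeR with library totals only (p = 0.0341, ratio 1.41, 95% interval 1.03 to 1.93), by DESeq2 (p = 0.0338) and by limma voom (p = 0.0217), and 0 of 6 were called after adjustment by any of these. Across all genes edgeR with TMM scaling had 2121 of 15782 at an unadjusted p under 0.05 in lesions and 2181 of 14746 in intact brain. After adjustment DESeq2 called 261 genes in intact brain and limma voom 0.

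*Gfap* averaged 4451 ± 2517 CPM in lesions on the ketogenic diet (SD, n = 19) and 4455 ± 2100 CPM in lesions on the standard diet (SD, n = 11). The ketogenic over standard ratio was 1.003 with a 95% interval of 0.671 to 1.499 (adjusted p = 0.998). The interval leaves room for a difference of up to about that size in either direction, so the near-equal means do not show that diet has no effect. In intact brain the gene averaged 354 ± 122 CPM on the ketogenic diet and 264 ± 71.3 CPM on the standard diet (SD, n = 8 each). There 4 of 8 ketogenic libraries lay above the highest standard library, and the ratio was 1.33 (0.995 to 1.78, p = 0.0535, adjusted p = 0.347 by edgeR).

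For *Vim* the ratio was 1.24 in lesions (95% interval 0.763 to 2.00, adjusted p = 0.800) and 0.781 in intact brain (0.540 to 1.13, adjusted p = 0.529). For *Nes* it was 1.12 in lesions (0.750 to 1.66) and 1.03 in intact brain (0.777 to 1.37). A diet difference was thus not shown for the progenitor filament gene in either tissue, though these intervals leave room for one. For *Cd44* the ratio was 0.880 in lesions (0.588 to 1.32) and 0.973 in intact brain (0.642 to 1.47), and for *Lcn2* 1.22 (0.711 to 2.08) and 0.914 (0.599 to 1.40). *Stat3*, the least variable of the 6, gave the tightest bounds, with a ratio of 1.07 in lesions (0.890 to 1.28) and 0.950 in intact brain (0.836 to 1.08). The adjusted p-values of these last 4 genes ran from 0.741 to 0.966.

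The change with MCAO was not shown to differ between diets for any of the 6. In the fit over all 46 libraries 0 of 6 interactions passed, against 0% of 16140 genes, and 0 of 6 had an unadjusted p under 0.05 by edgeR, DESeq2 or limma voom. Over all genes edgeR had 719 at that p, DESeq2 called 2 and limma voom 13. The MCAO fold on the ketogenic diet over that on the standard diet was 0.746 for *Gfap* (95% interval 0.417 to 1.33) and 1.56 for *Vim* (0.776 to 3.14). It was 1.07 for *Nes* (0.594 to 1.94), 0.897 for *Cd44* (0.459 to 1.75), 1.31 for *Lcn2* (0.561 to 3.06) and 1.11 for *Stat3* (0.855 to 1.45). For every gene but *Stat3* this interval takes in differences of over 1.5 times. The *Vim* value depended on the method. By limma voom it was 1.05 (95% interval 0.627 to 1.77), with rises of 8.28-fold on the ketogenic diet and 8.06-fold on the standard diet. The ketogenic over standard ratio of *Vim* was then 1.015 in lesions and 0.955 in intact brain.

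**Figure D2:**
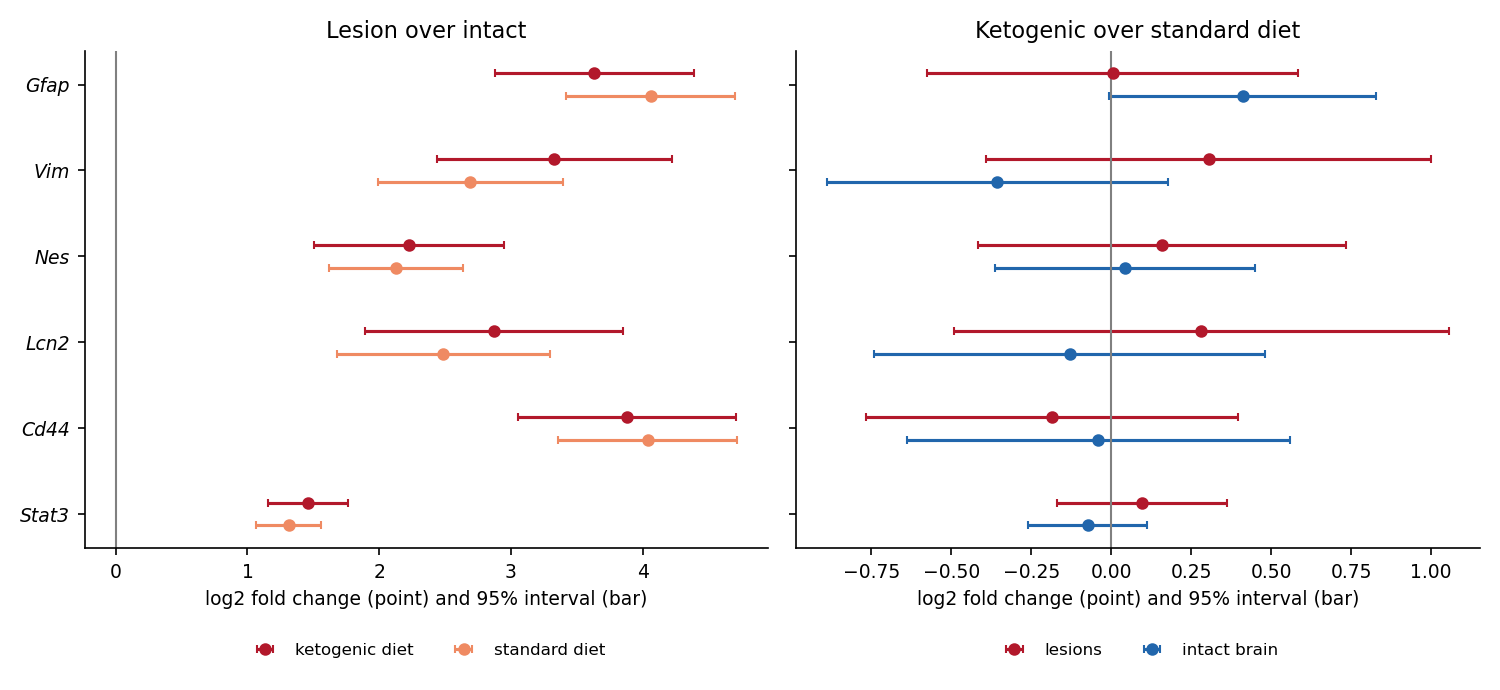
Log2 fold changes (points) with 95% intervals (bars) from edgeR for the 6 genes: lesion over intact on each diet (left) and ketogenic over standard diet in each tissue (right). All 12 intervals on the left lie above 0, and all 12 on the right include 0.

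By group mean the order of levels was the same in its main step for each gene, with both lesion groups above both intact groups. Within lesions the ketogenic group had the higher mean for *Vim*, *Nes*, *Lcn2* and *Stat3* and the lower mean for *Gfap* and *Cd44*, and within intact brain the ketogenic group was higher for *Gfap* and *Nes*. None of these differences between diets was called after adjustment.

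Lesions differed from each other by more than the 2 diet means did. Over the 30 lesions the highest level was 21.8 times the lowest for *Lcn2*, 10.8 times for *Vim*, 9.94 times for *Cd44*, 8.34 times for *Nes*, 7.76 times for *Gfap* and 2.44 times for *Stat3*. The coefficient of variation was 75.1% for *Lcn2*, 57.6% for *Vim*, 52.4% for *Gfap*, 50.4% for *Nes*, 46.9% for *Cd44* and 23.2% for *Stat3*. *Stat3* thus had the smallest rise and the smallest spread.

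The 6 genes did not vary as 1 group. Pearson's r of log2 CPM was computed for all 15 pairs over the 30 lesions, with permutation p-values adjusted over the pairs. Of these, 12 of 15 passed, and the share of other gene pairs that would pass was not counted. All libraries share 1 scaling and 1 tissue mixture per lesion, so the 15 values are descriptions of how levels varied together. *Vim* and *Nes* had the closest relation, with r = 0.961 (rho = 0.918, permutation p = 1e-05, the smallest these resamples give, adjusted p = 2.14e-05), and r = 0.95 without the 2 lesions farthest from the median. Within diets r was 0.972 in ketogenic lesions and 0.938 in standard lesions. *Stat3* followed both, with r = 0.903 to *Vim* (rho = 0.845) and 0.904 to *Nes* (rho = 0.844).

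*Gfap* stood apart from the other 2 filament genes. Its r was 0.176 with *Vim* (rho = 0.148, permutation p = 0.354, adjusted p = 0.38) and 0.112 with *Nes* (rho = 0.075, adjusted permutation p = 0.555). Without the 2 lesions with the most extreme *Gfap*, ketogenic 43 and 39, these were 0.33 and 0.26. With 1 lesion left out r ran from 0.067 to 0.33 with *Vim* and from 0.004 to 0.249 with *Nes*, and neither passed. Within diets *Gfap* and *Vim* gave r = 0.164 in ketogenic lesions and 0.221 in standard lesions. With *Stat3* its r was 0.305 (rho = 0.298, adjusted permutation p = 0.116), which became 0.48 (adjusted permutation p = 0.00911) without ketogenic lesion 39 alone and 0.236 (adjusted permutation p = 0.25) without ketogenic lesion 27 alone.

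The closest partner of *Gfap* among the members was *Cd44*, with r = 0.661 (rho = 0.686, permutation p = 6e-05, adjusted p = 8.18e-05), 0.701 without the same 2 lesions, 0.631 in ketogenic lesions and 0.758 in standard lesions. With *Lcn2* its r was 0.459 (rho = 0.422, permutation p = 0.0104, adjusted p = 0.013). It passed in 28 of 30 fits that each left out 1 lesion, the exceptions being ketogenic 27 (r = 0.382, adjusted permutation p = 0.051) and ketogenic 43 (r = 0.379, adjusted permutation p = 0.0525). Its r was 0.61 (adjusted permutation p = 0.000625) without ketogenic lesion 39, and 0.547 without ketogenic 43 and 39 together. *Cd44* was related to all other members, with r from 0.661 to 0.74 over the 30 lesions and rho from 0.519 (*Nes*) to 0.686 (*Gfap*). By rank these relations were uneven in standard lesions, with rho from 0.236 (*Nes*) to 0.736 (*Gfap*). In ketogenic lesions rho ran from 0.607 (*Lcn2*) to 0.711 (*Vim*).

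*Lcn2* and *Stat3* formed another close pair, with r = 0.845 (rho = 0.909, permutation p = 1e-05, adjusted p = 2.14e-05), 0.846 in ketogenic lesions and 0.84 in standard lesions. Of 14682 genes averaging 1 CPM or more in lesions, members apart, 0 had a higher rho to *Lcn2* than *Stat3* did, and 62 had a higher rho to *Stat3* than *Lcn2* did. By the same count 126 genes were closer to *Vim* than *Nes* was. Some passing pairs were less close. For *Vim* and *Lcn2*, 2543 genes were closer to *Vim* and 768 closer to *Lcn2*. For *Nes* and *Cd44*, 4836 genes were closer to *Nes* and 1479 closer to *Cd44*. For *Gfap*, 178 genes were closer than *Cd44*, and 3802 were closer than *Vim*.

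**Figure D3:**
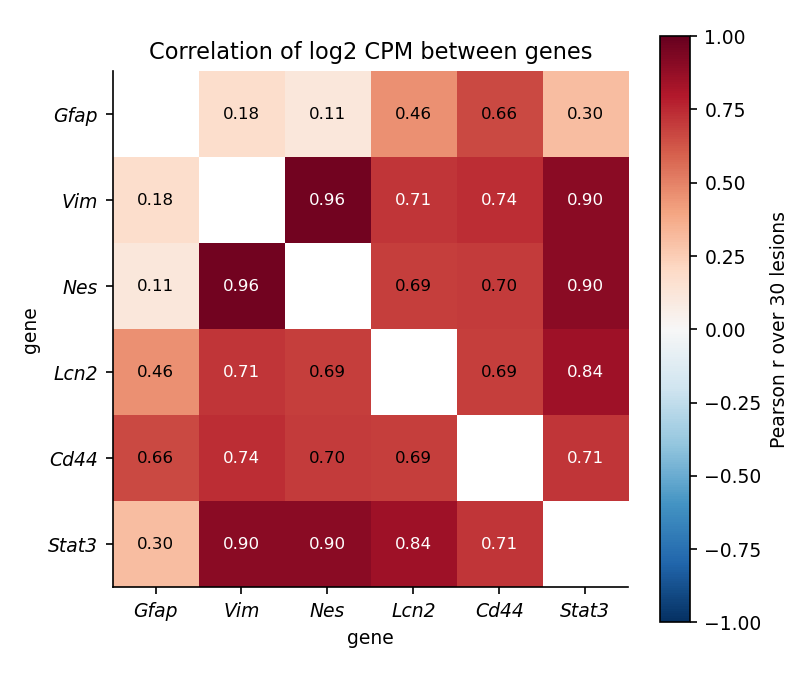
Pearson's r of log2 CPM between each pair of genes over the 30 lesions, given in each cell and by colour. The *Gfap* row is pale outside *Cd44* and *Lcn2*, whereas *Vim*, *Nes* and *Stat3* are at 0.903 or above with each other.

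**Figure D4:**
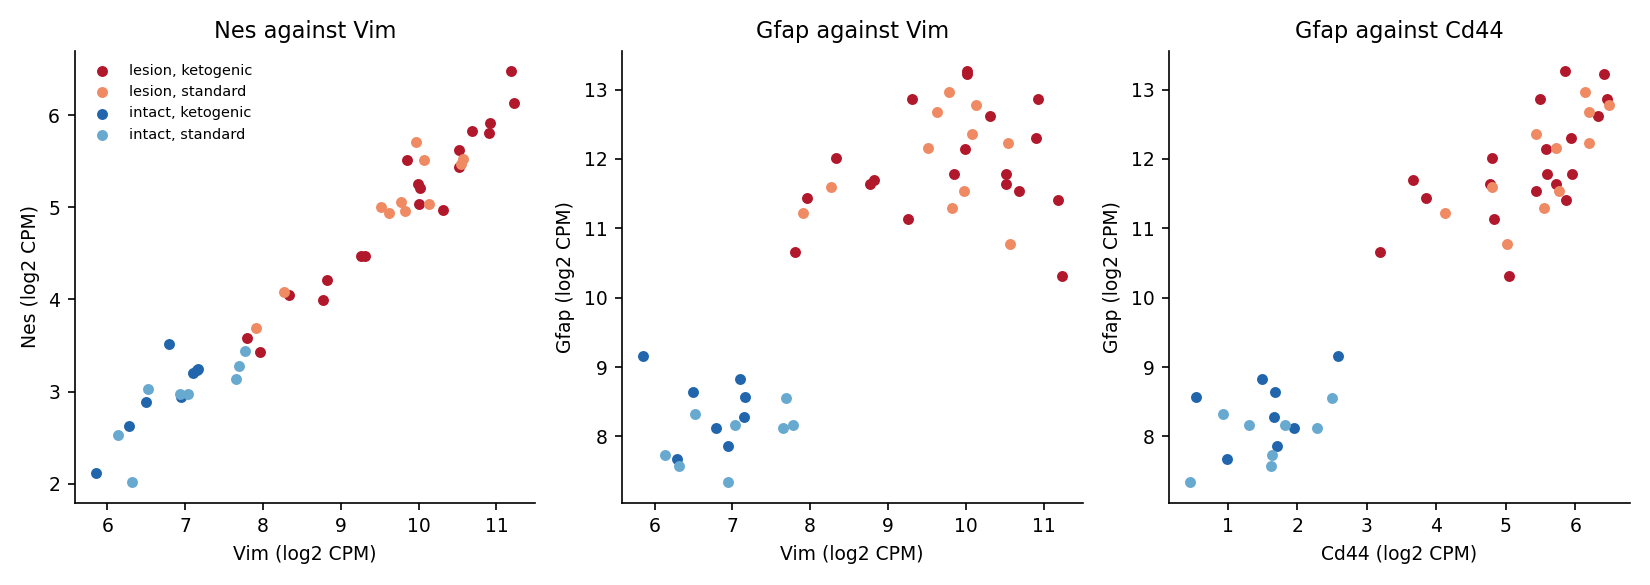
Log2 CPM of *Nes* against *Vim*, *Gfap* against *Vim* and *Gfap* against *Cd44*, with 1 point per library coloured by tissue and diet. Over the lesions *Vim* and *Nes* fall along a line (r = 0.961), *Gfap* and *Cd44* are looser (r = 0.661), and *Gfap* and *Vim* are scattered (r = 0.176) with ketogenic lesion 39 at the highest *Vim* and the lowest *Gfap*.

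Each library was also placed on an axis from the intact mean (0) to the lesion mean (1), using 14637 genes with the 6 members left out. Lesions on the ketogenic diet lay at 1.01 ± 0.35 (SD, n = 19, 0.287 to 1.40) and lesions on the standard diet at 0.99 ± 0.25 (SD, n = 11, 0.472 to 1.29). The difference between these diets was within the spread (permutation p = 0.877). The lesions filled this range without a break, the widest gap being 0.139, between ketogenic lesion 27 and the next. The axis was made from the same libraries, so its relation to the members is a description.

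*Nes* followed the axis most closely, with r = 0.969 over the 30 lesions (rho = 0.965, permutation p = 1e-05, adjusted p = 1.5e-05 over 6 genes). *Vim* had r = 0.941 (rho = 0.898) and *Stat3* 0.921 (rho = 0.894). *Lcn2* had r = 0.752 (rho = 0.746) and *Cd44* 0.734 (rho = 0.514). Without the 2 lesions farthest from the median, ketogenic 27 and 31, these 5 values were 0.963, 0.919, 0.914, 0.658 and 0.596 in that order. Over the 30 lesions 5 of 6 genes passed in all. The share of other genes that would pass was not counted, so this count does not set the members apart.

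*Gfap* did not pass, with r = 0.178 (rho = 0.12, permutation p = 0.345), and -0.008 without those 2 lesions. Leaving out single lesions moved it both ways, to 0.05 (permutation p = 0.806) without ketogenic 27 and to 0.31 (permutation p = 0.101) without ketogenic 39. Within diets its r was 0.155 in ketogenic lesions and 0.249 in standard lesions. By rank the members were less far apart in standard lesions. There rho was 0.155 for *Gfap*, 0.282 for *Cd44*, 0.327 for *Lcn2*, 0.491 for *Stat3*, 0.718 for *Vim* and 0.909 for *Nes*. In ketogenic lesions rho was 0.056 for *Gfap*, against 0.619 (*Cd44*) to 0.954 (*Nes*) for the others. The 5 lesions nearest to intact brain on the axis, ketogenic 27, 31 and 9 and standard 71 and 70, had 1623, 2761, 3316, 2375 and 3093 CPM of *Gfap*. The 5 farthest along it, ketogenic 39, 33, 15, 5 and 7, had 1268, 3202, 5053, 2707 and 2978 CPM. Of these 10 lesions, 9 were below the lesion median of 3520 CPM, the exception being ketogenic 15. That count rests on stopping at 5 lesions per end. Standard 67 and ketogenic 11, the next ones from the far end, had 5278 and 7431 CPM. Low levels also lay nearer the lesion mean, with 1745 CPM in standard 69 (at 1.18) and 2504 CPM in standard 82 (at 0.93). The 3 highest lesions, ketogenic 43 and 23 and standard 61, had 9837, 9561 and 8018 CPM and lay at 1.02, 1.07 and 1.01, in the middle of the lesions.

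*Vim* in the same lesions told the ends apart. It was 223, 249, 451, 241 and 309 CPM in the 5 lesions nearest to intact brain, in the order given for *Gfap*, and 2402, 1463, 1916, 2337 and 1651 CPM in the 5 farthest. The 3 lesions with the highest *Gfap* had 1032, 1039 and 878 CPM of *Vim*. These groups of lesions were picked after their values were seen and carry no test.

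Some lesions had moved far in 1 gene and little in another. The distance of a lesion from the intact mean, as a share of the mean log2 change of all lesions, was 66.1% for *Gfap* in ketogenic lesion 27, against 32.3% for *Vim*, 30.6% for *Nes*, 42.1% for *Cd44*, 8.3% for *Lcn2* and 60.8% for *Stat3*. Standard lesion 71 had 80.8% of the mean change for *Gfap*, 66.7% for *Cd44*, 46.2% for *Stat3*, 36.2% for *Vim*, 36.1% for *Nes* and 24.2% for *Lcn2*. In ketogenic lesion 31 *Gfap* stood at 86.6% and *Nes* at 23.3%, with the other 4 genes from 37.3% to 59.3%. In these 3 lesions, the nearest to intact brain on the axis, *Gfap* had the highest share of the 6 genes. In ketogenic lesion 39, the farthest along it, *Gfap* had the lowest share, 56.6%, against 90.5% to 154.2% for the others. These lesions were picked by an axis that the others followed more closely than *Gfap*, so the shares restate that relation and carry no test.

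**Figure D5:**
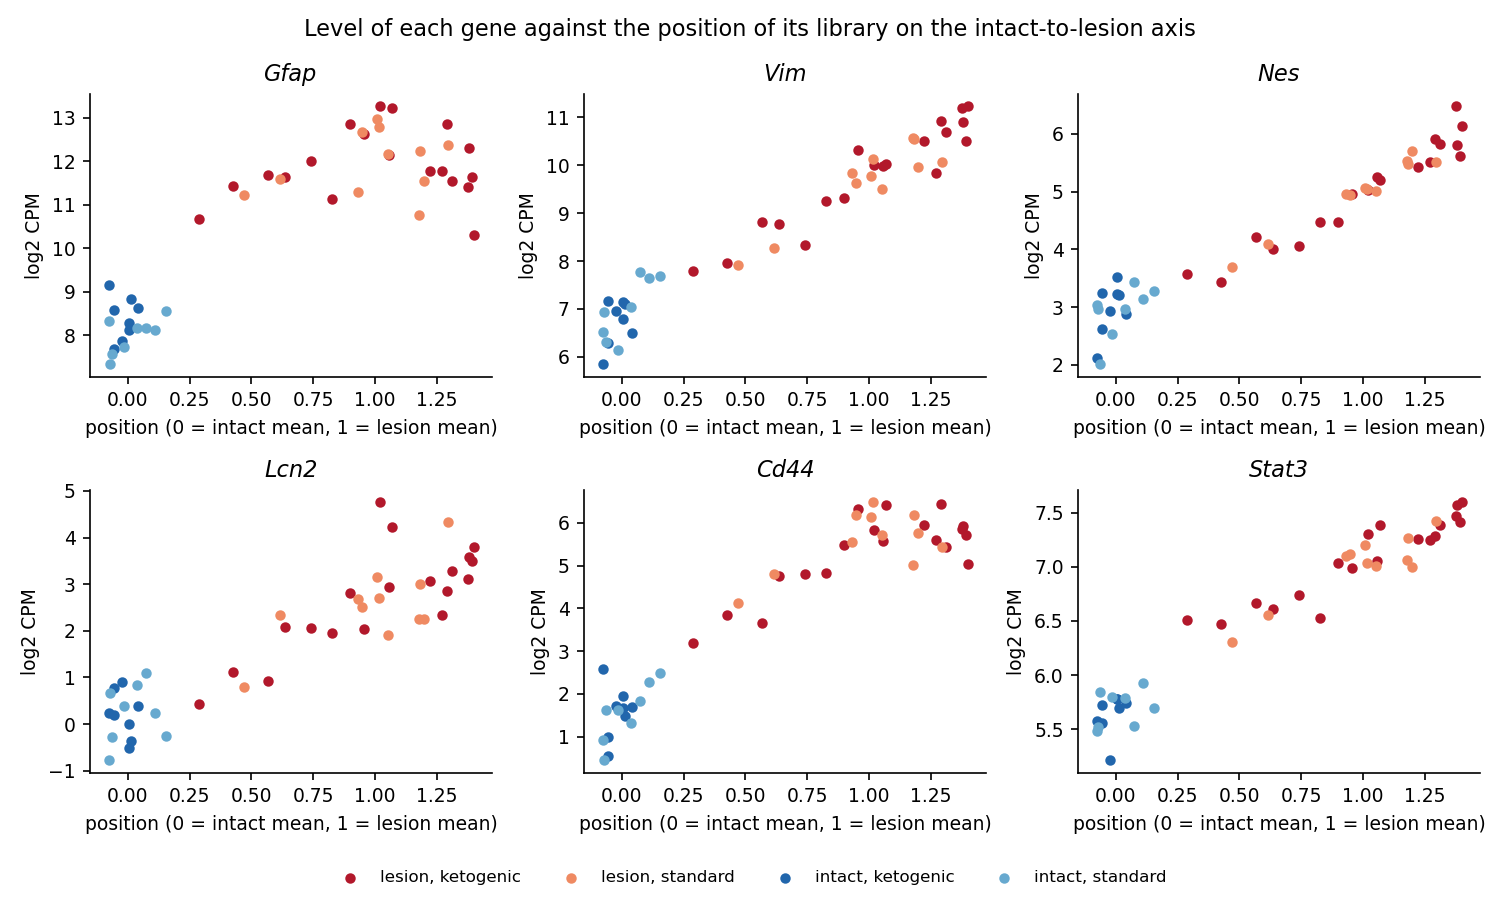
Log2 CPM of each gene against the position of its library on the intact-to-lesion axis, with 1 point per library coloured by tissue and diet. *Nes*, *Vim* and *Stat3* climb along the whole axis (r from 0.921 to 0.969 over lesions). *Gfap* is scattered among lesions, with its highest, ketogenic 43, near the lesion mean and its lowest, ketogenic 39 (1268 CPM), the farthest library.

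The counts of *Gfap* over those of *Vim* put both filament genes into 1 value per library, a ratio chosen after the values were seen. The p-values given for it do not allow for that choice, so they are descriptions. The ratio ran from 0.528 to 12.8 (median 4.45) in lesions on the ketogenic diet, against 1.89 to 9.93 (median 2.64) in intact brain on that diet. On the standard diet it ran from 1.15 to 10.02 (median 6.26) in lesions, against 1.31 to 3.50 (median 2.00) in intact brain. Lesions thus held both the lowest and the highest ratios, ketogenic 39 and ketogenic 21. On the standard diet the mean log2 ratio was 2.31 in lesions and 0.99 in intact brain, a difference of 1.32 (2-sided exact permutation p = 0.00482, adjusted to 0.0193 for the 4 comparisons of this ratio). With each library left out in turn the difference was 1.22 to 1.53. On the ketogenic diet it was 2.10 in lesions and 1.67 in intact brain, a difference of 0.43 that did not pass (exact permutation p = 0.37). With each library left out in turn that difference was 0.32 (without intact library 45) to 0.67 (without intact library 49), and none passed. The difference between these 2 changes was -0.89 (permutation p = 0.117), so the diets were not shown to differ in it.

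In intact brain the mean log2 ratio was 1.67 on the ketogenic diet and 0.99 on the standard diet, a difference of 0.68 (exact permutation p = 0.0521, adjusted p = 0.104). It was 0.44 (adjusted exact permutation p = 0.209) without intact ketogenic library 49, which had the highest *Gfap* (572 CPM), the highest *Cd44* (5.87 CPM) and the lowest *Vim* (57.6 CPM) of the intact libraries. It was 0.80 (adjusted exact permutation p = 0.0441) without intact standard library 85. In lesions the mean log2 ratio was lower by 0.21 on the ketogenic diet (2.10, against 2.31 on the standard diet, permutation p = 0.647), and by 0.04 to 0.42 with each library left out.

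The genes whose lesion pattern was most like *Gfap* were few. Of the 14682 genes, 5 had a rho above 0.9 with *Gfap*, 3 with *Cd44* and 1 with *Lcn2*, against 101 with *Stat3*, 260 with *Vim* and 553 with *Nes*. The closest to *Gfap* was ENSRNOG00000003654 (rho = 0.935 over 30 lesions). It averaged 5.12 ± 2.65 CPM in lesions on the ketogenic diet and 5.62 ± 3.12 CPM in lesions on the standard diet, against 0.980 ± 0.242 and 1.005 ± 0.597 CPM in intact brain on the ketogenic and the standard diet (SD). The closest to *Stat3* was ENSRNOG00000007457 (rho = 0.96). It averaged 294 ± 191 CPM in lesions on the ketogenic diet and 244 ± 142 CPM in lesions on the standard diet, against 6.96 ± 2.29 and 11.9 ± 6.09 CPM in intact brain on the ketogenic and the standard diet (SD). The sources used here give no name for either ID.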

How the data were processed

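RNA of 46 rat brain libraries was analysed from raw counts per gene, as deposited by the authors with no normalization, for 30452 Ensembl IDs. Libraries of polyA RNA from column-purified extracts were made with a directional kit, per the labels' protocols. Per the submitters' processing notes, the genome build was mRatBN7.2 and the tools included HISAT2 2.0.5, HTSeq 0.7.2, Cufflinks and DESeq2 1.42.0, beside bcl2fastq 2.20, MultiQC 1.15 and FastQC 0.11.8. Which annotation release was counted, and whether by strand, was not given in the sources used here, and genes that overlap a member on either strand may share its reads. The series-wide table differed from the per-sample files in 0 cells, and 39 of its columns, which belong to no sample described here, were not used. No 2 libraries of a group agreed within counting noise (smallest chi-square per degree of freedom 12.8).

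Names of the 6 genes come from the list of IDs that defined the set. Neither the files nor the RefSeq gene table (GRCr8, 0 rows with an Ensembl ID) pairs IDs with names, so 21 gene lists with 149 genes, which held pathway genes and markers of astrocytes and other cells, were not analysed. All 6 members are named, with 1 ID most like *Gfap* and 1 most like *Stat3*. Promoters were matched by symbol (6 of 6). The members, lists and tests were chosen with earlier results of these data known.

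Counts were fitted in R 4.3.3 with edgeR 4.0.16 (TMM, filterByExpr, robust quasi-likelihood F test), separately for each pair of groups and over all 46 libraries for the interaction. A gene was called at an adjusted p under 0.05. CPM values used TMM factors over all libraries, and log2 CPM a prior count of 2. Correlations used 100000 permutations, or 20000 when a lesion was left out. Alternatives were DESeq2 1.42.0, limma 3.58.1 voom with quality weights, RLE scaling, library totals only, no low-count filter, a mean of at least 1 CPM, 1 fit over all libraries, lesion position as a covariate, a prior count of 0.5, rho in place of r, and leaving out each library in turn. The fits were tested on simulated counts. Intervals are for the mean fold change, with errors taken from the spread between libraries, and do not give the range of single libraries. PCR duplicates were not marked by molecular identifiers.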

Additional observations from a re-analysis of the deposited data

Results flagged for a closer look

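*Stat3* in intact brain on the ketogenic diet had 1 library far from the rest. Library 45 had 37.1 CPM, against 47.1 to 54.9 CPM in the other libraries of that group and 44.6 to 60.9 CPM in intact brain on the standard diet. Its gap to the next library was 0.562 of the group's range, above Dixon's 95% limit for 8 values. Of 12 cases looked at, each of the 6 genes in each intact group, 1 held such a library, and chance gives about 1 in 20. These cases share libraries, and the lesion groups were not looked at in this way.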

How the results depend on the processing

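No paired analysis was possible because the groups share no sample numbers. Under the alternatives the 6 genes were called higher after MCAO on both diets each time, and 0 were called for diet or interaction. Leaving out 1 library moved no called fold by more than 1.24 times. Among uncalled diet differences and interactions, 16 values changed sign (log2). This counts each alternative and, for each gene, only the lowest and the highest value with 1 library left out. In lesions, *Gfap* was -0.009 with library totals only, -0.0022 with no low-count filter, -0.0492 by limma voom, -0.0029 in 1 fit over all libraries, -0.0014 with lesion position as covariate and ran from -0.0986 (without ketogenic lesion 43) to 0.1252 with 1 library left out. *Nes* in lesions was -0.0957 by limma voom and -0.0024 with lesion position. In intact brain, *Nes* ran from -0.058 (without standard library 88) to 0.1358 and *Lcn2* from -0.2462 to 0.0247 (without standard library 83). *Cd44* there was 0.0434 with library totals only and ran from -0.2324 to 0.1282 (without standard library 90), and *Stat3* 0.0107 with library totals only. For the interaction, *Nes* was -0.3625 by limma voom and ran from -0.0102 (without ketogenic lesion 5) to 0.2012, and *Cd44* ran from -0.3253 to 0.0352 (without intact ketogenic library 49). The cause was not tested.

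Over all genes, 117 were called for diet in lesions, against 21 with no filter, 77 in 1 fit over all libraries, 183 with library totals only, 464 by DESeq2, 945 by limma voom and 1689 with lesion position as covariate. In intact brain 0 were called, against 63 in 1 fit and 261 by DESeq2. With library totals only, 7504 genes were higher and 3357 lower in lesions on the ketogenic diet, against 5589 and 5379 with TMM, and on the standard diet 8162 and 2490, against 5291 and 5272. The 15 pairs gave 12 passing relations with rho, library totals only or a prior count of 0.5, and 11 to 13 with each lesion left out. *Lcn2*, with as few as 4 reads in an intact library, had no value for diet in intact brain under the filter of 1 CPM and no adjusted p there by DESeq2.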
